A study of Mus musculus with 18 samples.

Results

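The transcripts of 10 members of the BCL2 family, the regulators of mitochondrial apoptosis, were followed in mouse embryonic stem (ES) cells grown in 3D culture, where the cells either form polarised rosettes around a lumen or stay as non-polarised clumps. The members were chosen by symbol: the anti-apoptotic Bcl2, Bcl2l1 and Mcl1, the effectors Bax and Bak1, and the BH3-only genes Bbc3, Pmaip1, Bcl2l11, Bmf and Bik. All 10 symbols were found, each under 1 identifier, among the 49671 gene identifiers of the count table, and all 10 passed the filter on low counts in both cell lines. RNA sequencing covered 18 samples, 3 in each of 6 groups, after culture in growth factor depleted Matrigel, a basement membrane hydrogel. Wild-type E14 ES cells (strain label 12910la, passage 20) spent 48 h in N2B27 medium with DMSO as vehicle (DMSO), with 3 µM CHIR99021, which inhibits Gsk3 (CH), with the same dose of CHIR99021 plus 0.4 µM PD0325901, which inhibits Mek (2i), or with 12 ng/ml Fgf2 plus 20 ng/ml Activin A (FGF2_Activin). Esrrb fl/fl ES cells (from Acr-EGFP transgenic mice, passage 25) carry a tamoxifen-inducible Cre. They were kept for 1 day with 4OHT, an active tamoxifen metabolite (Esrrb_4OHT), or without it (Esrrb_NT), and both groups then spent 24 h in CHIR99021 at 3 µM. Every line had been maintained in 2i and Lif beforehand. The study describes DMSO and FGF2_Activin cultures as polarised rosettes and CH and 2i cultures as non-polarised. In CHIR99021 it found rosettes after Esrrb deletion, already at 24 h, while the floxed control cells stayed non-polarised. By cleaved Caspase-3 staining it also saw apoptosis increase in the deleted cells over the last day of culture, after 24 h. Its gene set enrichment analysis at 24 h in CHIR99021 showed apoptotic genes raised in the deleted cells. Cell line, culture time and passage differ together between the E14 and the Esrrb fl/fl samples and cannot be told apart, so levels are set side by side across the lines without a test.

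In mitochondrial apoptosis, BAX and BAK1 permeabilise the outer mitochondrial membrane and so release cytochrome c. BCL2, BCL-XL (encoded by Bcl2l1) and MCL1 hold them in check, and the BH3-only proteins bind these guardians, or BAX and BAK1 themselves, and so tip a cell towards death. Pluripotent stem cells are known to lie close to the threshold of this pathway. The family bears on lumen formation because cavities can arise by the death of inner cells or by the separation of apical membranes between living ones. Transcript levels do not report on protein, phosphorylation or localisation, through which several members are also controlled.

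The libraries held 25388139 to 37158661 counts in E14 and 19915222 to 20140699 in Esrrb fl/fl cells. The embryonic stem cell markers Pou5f1, Sox2, Nanog, Sall4 and Utf1 were all detected in all 6 groups, with summed levels of 1358 to 2483 CPM, which are counts scaled to library size with TMM normalisation. As a check of the labels, Esrrb itself lay at 110 to 144 CPM in Esrrb_NT and 58.1 to 62.7 CPM in Esrrb_4OHT, counted over the whole gene and so including exons that Cre may leave in place. In E14 it lay at 286 to 566 CPM in CH and 2i and at 6.88 to 30.3 CPM in DMSO and FGF2_Activin. DMSO replicate 1 stood apart from its group, with Nanog at 68.1 CPM against 5.92 and 2.78 CPM in the other DMSO samples. Results that rest on it are therefore also given from replicates 2 and 3 of every E14 group. Markers of other cell types moved with the conditions as well. The summed level of the 5 mesendoderm markers was 0.643 to 1.64 CPM in DMSO and FGF2_Activin, 438 to 671 CPM in CH, 79.5 to 114 CPM in 2i, 37.5 to 47.6 CPM in Esrrb_NT and 319 to 456 CPM in Esrrb_4OHT, with Gsc and Mesp1 below 10 counts in every library. In CH, 2i and both Esrrb fl/fl groups the sum was mostly T, which alone lay at 436 to 665 CPM in CH and 79.0 to 114 CPM in 2i. Foxa2 and Mixl1 were also below 10 counts in every 2i library. All 3 of the mesendoderm markers that were tested were called higher in CH against DMSO, and 1 of the 3 in 2i against FGF2_Activin. The 5 trophectoderm markers summed to 22.8 to 30.5 CPM in DMSO and 77.0 to 121 CPM in CH, with Elf5 below 10 counts in every library. They did not move as 1, since of the 4 tested in CH against DMSO 2 were called higher and 1 lower. The 5 neural markers, mostly Tubb3, summed to 29.1 to 106 CPM in DMSO and 5.21 to 23.9 CPM in CH, and the 5 fibroblast markers, mostly Thy1, to 15.5 to 48.4 CPM and 3.75 to 7.22 CPM, with Postn and Twist2 below 10 counts in every library. The 5 primitive endoderm markers summed to at most 5.40 CPM. The part of these cells in the results was not tested, and in bulk samples fewer cells of a type and less RNA per cell cannot be told apart.

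Between the non-polarised (CH and 2i) and the polarised (DMSO and FGF2_Activin) E14 cultures the members moved downwards where they moved. Calls required an adjusted p below 0.01 and a log2 fold change beyond 1 in either direction in edgeR's quasi-likelihood test over all genes. Its Benjamini-Hochberg adjusted p is the one given throughout, unless another tool is named. In CH against DMSO, 3 of the 10 members were called lower (Bcl2l11, Bmf and Bik), where 10.2% of the 16413 genes tested were called lower and 7.51% higher. At adjusted p alone, 6 members were lower and 0 higher, against 15.3% and 13.7% of all genes. The members' median log2 fold change was -0.84, beside -0.002 over all genes. In 2i against FGF2_Activin, 4 members were called lower (Bcl2, Pmaip1, Bcl2l11 and Bik), where 14.4% of all genes were called lower and 9.13% higher. At adjusted p alone 6 were lower and 0 higher, against 19.9% and 17.8% of all genes, and the median was -0.73 beside 0.002. The comparisons within each kind of culture moved few members. In 2i against CH, 1 member (Bcl2) was called lower, where 1.67% of all genes were called lower and 0.317% higher. In FGF2_Activin against DMSO 0 members were called by edgeR or by DESeq2, with 4 at an unadjusted p under 0.05 in edgeR, where 0.902% of all genes were called higher and 0.347% lower. At adjusted p alone Bak1 was higher and Bcl2l1 lower, against 1.18% and 0.615% of all genes. In Esrrb_4OHT against Esrrb_NT, 2 members (Bcl2 and Bik) were called higher, where 12.8% of the 14893 genes tested were called higher and 3.87% lower. At adjusted p alone 3 members were higher and 1 lower, against 24.6% and 19.9% of all genes, and the median was 0.37 beside 0.002. With the replicate number as a block these 4 became 9, namely 6 higher and 3 lower, with the same number called. The share of all genes at adjusted p alone was not counted with the block, so the 9 have no background to be set against. The 5 comparisons share samples, since DMSO, FGF2_Activin, CH and 2i each serve in 2 of the 4 made in E14.

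**Figure D1:**
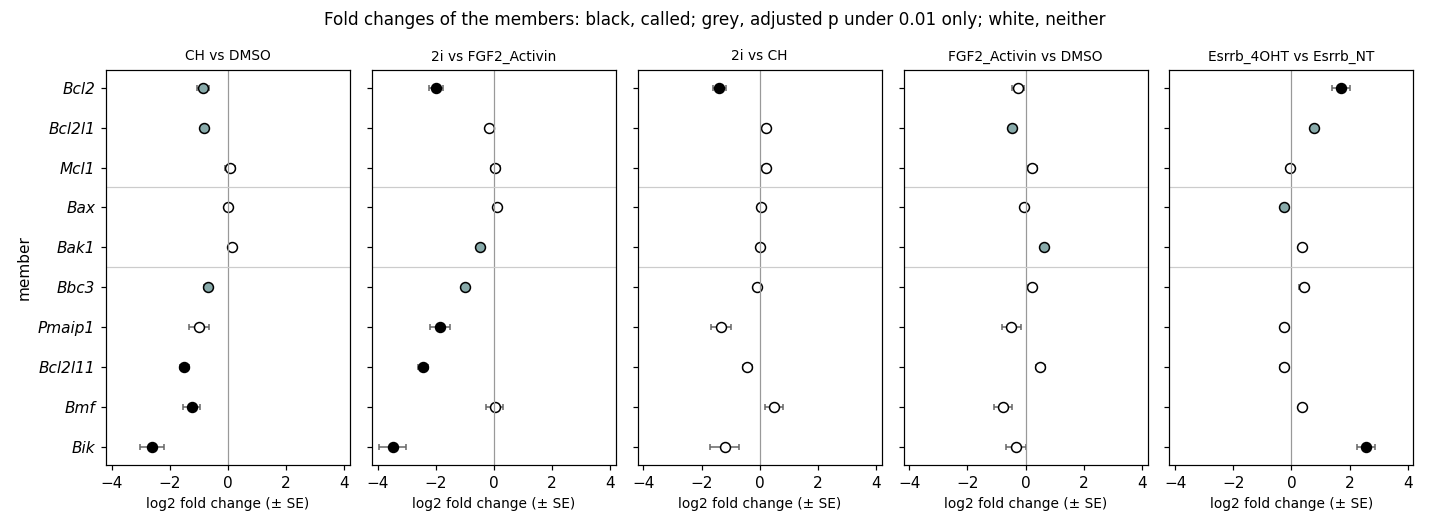
Log2 fold change (x axis, bars ± SE) of the 10 members (y axis, by role from the anti-apoptotic genes at the top to the BH3-only genes at the bottom) in 5 comparisons. Black points passed both thresholds, grey points only the adjusted p, and white points neither. The black points lie to the left in the 3 comparisons of CH or 2i cultures, with Bik furthest at -2.61 in CH against DMSO and -3.48 in 2i against FGF2_Activin, and to the right in the Esrrb_4OHT panel, with Bik at 2.56.

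Among the anti-apoptotic genes, Bcl2 and Bcl2l1 varied with the culture while Mcl1, the most abundant of them per kb of exon, passed no test over all replicates. Bcl2 (chr1:106538178-106714274, minus strand, GRCm38) encodes the guardian that gave the family its name, and it was scarce. It lay at 2.87, 2.16 and 2.78 CPM in DMSO and at 2.15, 2.27 and 2.12 CPM in FGF2_Activin, the libraries holding 61 to 107 counts. In CH it lay at 1.36, 1.54 and 1.40 CPM, and in 2i at 0.383, 0.620 and 0.625 CPM. The polarised groups overlapped each other, CH lay below both, and 2i below CH. Bcl2 fell in CH against DMSO with a log2 fold change of -0.86 ± 0.21 (SE, edgeR adjusted p = 0.00716), which rose to adjusted p = 0.0187 to 0.0281 on leaving out any 1 library but DMSO replicate 2. It was called lower in 2i against FGF2_Activin at -1.99 ± 0.23 (edgeR adjusted p = 3.11e-05). The call in 2i against CH, -1.39 ± 0.23 (edgeR adjusted p = 0.00433), rested on all 6 libraries, since leaving out any 1 of them gave an edgeR adjusted p of 0.0101 to 0.0206. In the Esrrb fl/fl cells Bcl2 had 0.644, 0.415 and 0.417 CPM in Esrrb_NT and 1.30, 1.98 and 1.46 CPM in Esrrb_4OHT, without overlap. That was a call at 1.71 ± 0.30 (edgeR adjusted p = 0.00118), from 8 to 12 counts per library to 27 to 42. An antisense gene, D630008O14Rik, covers 6.09% of the exon length of Bcl2, and the counting did not use strand.

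Bcl2l1 (chr2:152780668-152831728, minus strand) encodes BCL-XL, a guardian known to protect pluripotent cells. Its levels were 61.7, 55.3 and 62.1 CPM in DMSO and 42.8, 44.5 and 43.5 CPM in FGF2_Activin. They were 32.1, 35.1 and 33.4 CPM in CH and 36.3, 39.7 and 39.7 CPM in 2i. DMSO was thus the highest of the E14 groups and CH the lowest, with no overlap between any 2 neighbouring groups. The fall in CH against DMSO was -0.83 ± 0.08 on the log2 scale (edgeR adjusted p = 9.31e-06). In FGF2_Activin against DMSO the fall was -0.45 ± 0.07 (edgeR adjusted p = 0.0059), and it was at an adjusted p of 0.0177 to 0.0351 on leaving out any 1 library but DMSO replicate 2. Values in 2i and FGF2_Activin differed by -0.17 ± 0.07 (edgeR adjusted p = 0.0738). In Esrrb_NT the levels were 44.6, 40.9 and 42.4 CPM, and in Esrrb_4OHT they were 83.4, 62.2 and 70.0 CPM, the highest of all 6 groups. The rise was 0.79 ± 0.10 (edgeR adjusted p = 0.000235), below the fold needed for a call.

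Promoter windows of RefSeq (GRCm38.p6) ran from 250 bases before to 50 after a gene's start. Those of 8 members, all but Bik and Pmaip1, were used, in 15 windows. They were searched on both strands for AAGGTCA, which is only a part of the ESRRB site, and for the TCF/LEF core CTTTGA. These motifs do not overlap each other, and the full ESRRB site was not searched for. The motif AAGGTCA was in 4.72% of all 32851 windows and in 1 of the members' 15 windows. The TCF/LEF core was in 16% of all windows and also in 1 of the members'. Whether these matches exceed the background was not tested. The window with AAGGTCA belonged to a start of Bcl2l1, the member just described as lower in CH and higher in Esrrb_4OHT. It is shown for that reason. The window lies at chr2:152828440-152828739 on the minus strand. Its capitals mark the motif AAGGTCA, read on the opposite strand and beginning 104 bases before the start. The other 2 windows of Bcl2l1 held neither motif. The window with the TCF/LEF core was that of Bax, at chr7:45466849-45467148 on the minus strand. Its capitals mark the core, which begins 194 bases before the start. It is shown as the only other window with a match. Bax passed no test between the E14 groups, but in Esrrb_4OHT against Esrrb_NT it fell by -0.27 ± 0.05 (edgeR adjusted p = 0.00251), below the fold needed for a call. The presence of a motif is a description of these letters and does not show binding.
Bcl2l1: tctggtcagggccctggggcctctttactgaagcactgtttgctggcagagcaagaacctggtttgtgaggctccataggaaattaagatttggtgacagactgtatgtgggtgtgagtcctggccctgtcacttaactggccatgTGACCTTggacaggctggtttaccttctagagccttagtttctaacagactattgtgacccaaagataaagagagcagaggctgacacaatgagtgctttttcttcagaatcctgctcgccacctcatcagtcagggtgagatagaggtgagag
Bax: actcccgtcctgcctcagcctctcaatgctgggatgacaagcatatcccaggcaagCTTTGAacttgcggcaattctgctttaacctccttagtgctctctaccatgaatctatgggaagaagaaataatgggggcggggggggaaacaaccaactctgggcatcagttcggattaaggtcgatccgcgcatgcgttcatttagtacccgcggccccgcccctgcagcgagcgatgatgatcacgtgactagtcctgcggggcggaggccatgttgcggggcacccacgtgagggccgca

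Mcl1 (chr3:95658788-95663176, plus strand) encodes a short-lived guardian. Its levels were 397, 278 and 238 CPM in DMSO, 417, 334 and 312 CPM in FGF2_Activin, 300, 317 and 334 CPM in CH, and 385, 358 and 356 CPM in 2i. All 4 groups overlapped in a chain, and replicate 1 was the highest of its group in all but CH. No comparison passed, with log2 differences from 0.05 ± 0.16 in 2i against FGF2_Activin to 0.22 ± 0.16 in FGF2_Activin against DMSO. In CH against DMSO the difference was 0.06 ± 0.16 (edgeR adjusted p = 0.782), and from replicates 2 and 3 alone it was 0.35 (edgeR adjusted p = 0.000208). With those replicates the FGF2_Activin samples also exceeded the DMSO samples, by 0.33 (edgeR adjusted p = 0.00146). Esrrb_NT had 299, 301 and 307 CPM and Esrrb_4OHT 299, 287 and 270 CPM, a difference of -0.05 ± 0.05 (edgeR adjusted p = 0.418).

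The effectors varied little between the E14 groups, except for Bak1 in FGF2_Activin. Bax (chr7:45461697-45466898, minus strand) lay at 137, 157 and 163 CPM in DMSO, 132, 157 and 151 CPM in FGF2_Activin, 144, 161 and 149 CPM in CH, and 154, 161 and 155 CPM in 2i. Its 4 E14 groups overlapped, and the log2 differences ran from -0.05 ± 0.09 to 0.10 ± 0.09. In Esrrb_NT it had 162, 149 and 156 CPM and in Esrrb_4OHT 130, 127 and 120 CPM, the lowest of all groups and without overlap. The fall was -0.27 ± 0.05 (edgeR adjusted p = 0.00251), and it missed the threshold without Esrrb_4OHT replicate 3 (0.015) or without Esrrb_NT replicate 3 (0.0122). Another gene on the same strand, Gm45808, covers 12.2% of the exon length of Bax.

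Bak1 (chr17:27019810-27029009, minus strand) was highest in FGF2_Activin, at 84.0, 72.8 and 72.4 CPM. It had 47.8, 48.4 and 52.0 CPM in DMSO, 56.8, 56.6 and 50.6 CPM in CH, and 53.8, 56.2 and 53.6 CPM in 2i. FGF2_Activin lay above every other sample of either line. Bak1 rose in FGF2_Activin against DMSO by 0.63 ± 0.08 (edgeR adjusted p = 0.00106), with an adjusted p of 0.0154 in a fit of those 6 samples alone, and was lower in 2i than in FGF2_Activin by -0.48 ± 0.08 (edgeR adjusted p = 0.000422). CH and DMSO differed by 0.15 ± 0.08 (edgeR adjusted p = 0.155). Esrrb_NT had 39.5, 51.5 and 49.95 CPM and Esrrb_4OHT 55.3, 61.5 and 59.9 CPM, at 0.36 ± 0.10 (edgeR adjusted p = 0.0126, and 0.000131 with the replicate block). The opposite-strand gene Ggnbp1 covers 25.5% of the exon length of Bak1, so reads of the pair could not be separated there.

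**Figure D2:**
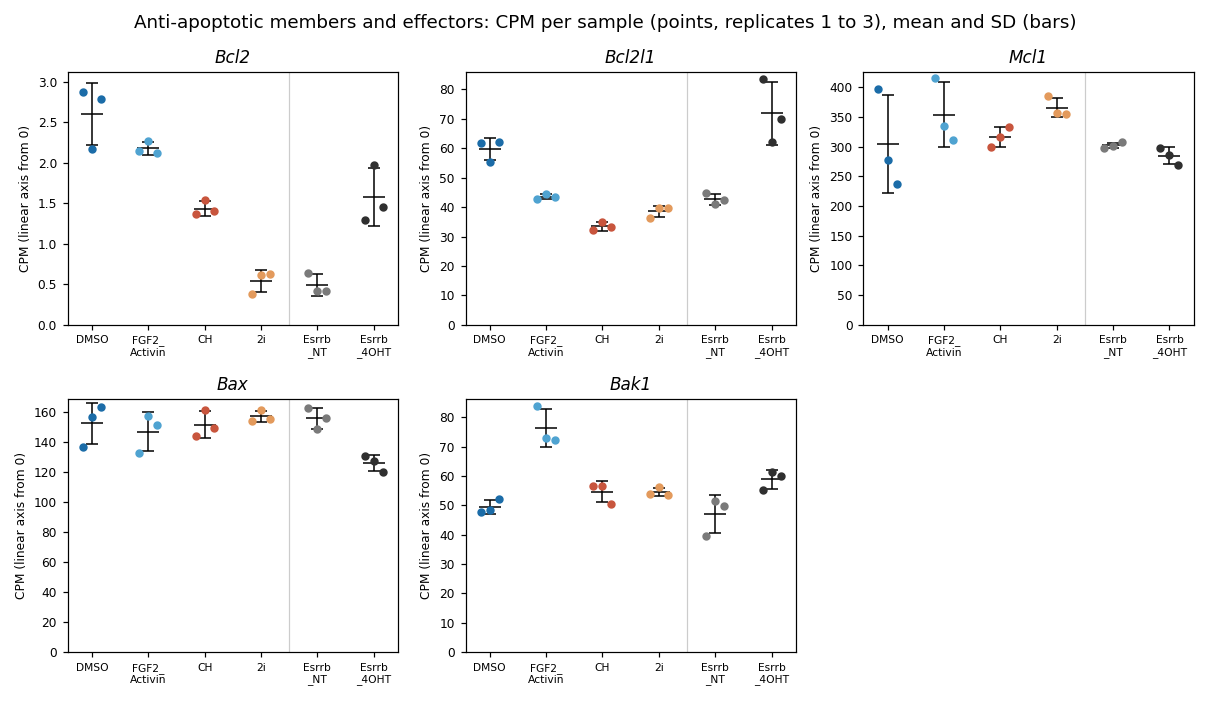
CPM (y axes, linear from 0) of Bcl2, Bcl2l1, Mcl1, Bax and Bak1 in the 6 groups (x axes), with 1 point per sample, replicates 1 to 3 from left to right, and bars for the mean and SD. A grey line separates the E14 groups from the Esrrb fl/fl groups. Bcl2 steps down from DMSO and FGF2_Activin through CH to 2i (0.383 to 0.625 CPM), Bcl2l1 is highest in Esrrb_4OHT, Bak1 is highest in FGF2_Activin, and Mcl1 in DMSO spreads from 238 to 397 CPM.

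The BH3-only genes held the largest log2 fold changes of the members in both comparisons of non-polarised with polarised cultures. Bcl2l11 (chr2:128126038-128162547, plus strand) encodes BIM, which binds all the anti-apoptotic proteins and which Erk signalling is known to mark for degradation. It lay at 62.3, 80.4 and 72.3 CPM in DMSO and at 107, 97.8 and 99.5 CPM in FGF2_Activin. In CH it lay at 18.3, 30.2 and 27.0 CPM and in 2i at 18.9, 18.2 and 18.9 CPM. Every polarised sample lay above every CH and 2i sample. CH and 2i overlapped, at -0.43 ± 0.16 (edgeR adjusted p = 0.146, and 0.00826 without CH replicate 1). The log2 fold change was -1.50 ± 0.16 in CH against DMSO (edgeR adjusted p = 2.62e-05) and -2.44 ± 0.16 in 2i against FGF2_Activin (edgeR adjusted p = 5.95e-07). Both calls held under all 12 alternatives, with adjusted p of at most 0.00195. In Esrrb_NT Bcl2l11 had 21.8, 29.2 and 28.7 CPM and in Esrrb_4OHT 18.9, 23.8 and 22.4 CPM. These overlapped, at -0.25 ± 0.13 (edgeR adjusted p = 0.13, and 0.00729 with the replicate block), and both lay in the range of CH and 2i rather than of DMSO.

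Bik (chr15:83526862-83544634, plus strand), whose product acts largely from the endoplasmic reticulum, had few counts and the largest fold changes. There were 115, 68 and 56 counts in DMSO (3.08, 2.13 and 2.17 CPM) and 76, 37 and 68 counts in FGF2_Activin (2.30, 1.22 and 2.37 CPM). CH had 14, 11 and 9 counts (0.477, 0.359 and 0.360 CPM), and 2i had 9, 5 and 2 counts (0.314, 0.148 and 0.0625 CPM). The polarised and non-polarised groups did not overlap. Bik was called lower in CH against DMSO at -2.61 ± 0.41 (edgeR adjusted p = 0.000436) and in 2i against FGF2_Activin at -3.48 ± 0.46 (edgeR adjusted p = 7.77e-05), both under all 12 alternatives. It was called higher in Esrrb_4OHT, with 28, 33 and 30 counts (1.34, 1.55 and 1.41 CPM), than in Esrrb_NT, with 5, 3 and 6 counts (0.268, 0.156 and 0.313 CPM), at 2.56 ± 0.30 (edgeR adjusted p = 0.000139), under all 10 alternatives. Bik and Bcl2l11 thus stood together among the E14 groups, while in Esrrb_4OHT against Esrrb_NT the first was called higher and the second had a value of -0.25. The difference between these 2 genes was not tested.

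Bbc3 (chr7:16308393-16318205, plus strand) encodes PUMA, which p53 can induce and which binds all the guardians. It lay at 74.6, 61.7 and 60.9 CPM in DMSO and 80.7, 73.8 and 73.4 CPM in FGF2_Activin, against 39.9, 40.8 and 40.8 CPM in CH and 45.8, 33.8 and 35.6 CPM in 2i. Polarised and non-polarised groups again did not overlap. Its falls were -0.70 ± 0.12 in CH against DMSO (edgeR adjusted p = 0.000721) and -0.98 ± 0.12 in 2i against FGF2_Activin (edgeR adjusted p = 4.52e-05), both short of the fold needed for a call. The second became a call, at -1.001 to -1.12, without FGF2_Activin replicate 2, FGF2_Activin replicate 3 or 2i replicate 1. Esrrb_NT had 26.3, 21.2 and 21.3 CPM and Esrrb_4OHT 37.3, 26.4 and 26.0 CPM, with a difference of 0.42 ± 0.15 (edgeR adjusted p = 0.0412, and 0.000254 with the replicate block).

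Bmf (chr2:118528757-118549687, minus strand), whose product is tied to the actin cytoskeleton and to death after loss of attachment, was highest in DMSO, at 38.3, 26.8 and 30.6 CPM. FGF2_Activin had 22.4, 17.2 and 15.8 CPM, CH 18.9, 9.90 and 11.2 CPM, and 2i 27.9, 14.1 and 14.3 CPM. DMSO lay above CH and above FGF2_Activin without overlap, while the other 3 groups overlapped, and replicate 1 was the highest sample in all 4. The call in CH against DMSO, -1.25 ± 0.31 (edgeR adjusted p = 0.00698), was lost at 0.0111 to 0.0338 without any 1 of DMSO replicates 1, 2 or 3 or CH replicates 2 or 3, and it stood at 9.88e-06 with the replicate block and at 8.47e-09 from replicates 2 and 3. In FGF2_Activin against DMSO the difference was -0.79 ± 0.30 (edgeR adjusted p = 0.208), and with the block it fell (edgeR adjusted p = 0.00231). Esrrb_NT had 14.9, 17.4 and 15.0 CPM and Esrrb_4OHT 22.6, 19.7 and 17.3 CPM, a difference of 0.37 ± 0.12 (edgeR adjusted p = 0.0244, and 0.00468 with the block).

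Pmaip1 encodes NOXA, the partner that neutralises MCL1, and its levels differed widely between the cell lines. In E14 it had 158, 68.9 and 62.9 CPM in DMSO, 96.8, 54.3 and 55.2 CPM in FGF2_Activin, 56.5, 43.2 and 45.5 CPM in CH, and 21.3, 19.8 and 16.5 CPM in 2i. Replicate 1 was the highest sample of each of these groups, most of all in DMSO, and 2i lay below all other groups. Pmaip1 was called lower in 2i against FGF2_Activin at -1.84 ± 0.34 (edgeR adjusted p = 0.00104). In 2i against CH the difference was -1.34 ± 0.34 (edgeR adjusted p = 0.0389). It was called with the replicate block (0.000792), in DESeq2's Wald test (0.00184), in the fit of those 6 samples (0.0088) and from replicates 2 and 3 (6.82e-08). In CH against DMSO it was -0.99 ± 0.33 (edgeR adjusted p = 0.0326), and it fell with the block, at -0.89 (edgeR adjusted p = 0.00136), and from replicates 2 and 3, at -0.56 (edgeR adjusted p = 1.27e-05). In the Esrrb fl/fl cells it reached 217, 251 and 259 CPM in Esrrb_NT and 167, 221 and 212 CPM in Esrrb_4OHT, above every E14 sample. These 2 groups overlapped, at -0.24 ± 0.11 (edgeR adjusted p = 0.086, and 0.000414 with the block). Esrrb_NT and CH were both grown in CHIR99021 at 3 µM, and their mean levels of Pmaip1 were 242 ± 22.6 and 48.4 ± 7.08 CPM (SD, n = 3 each).

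**Figure D3:**
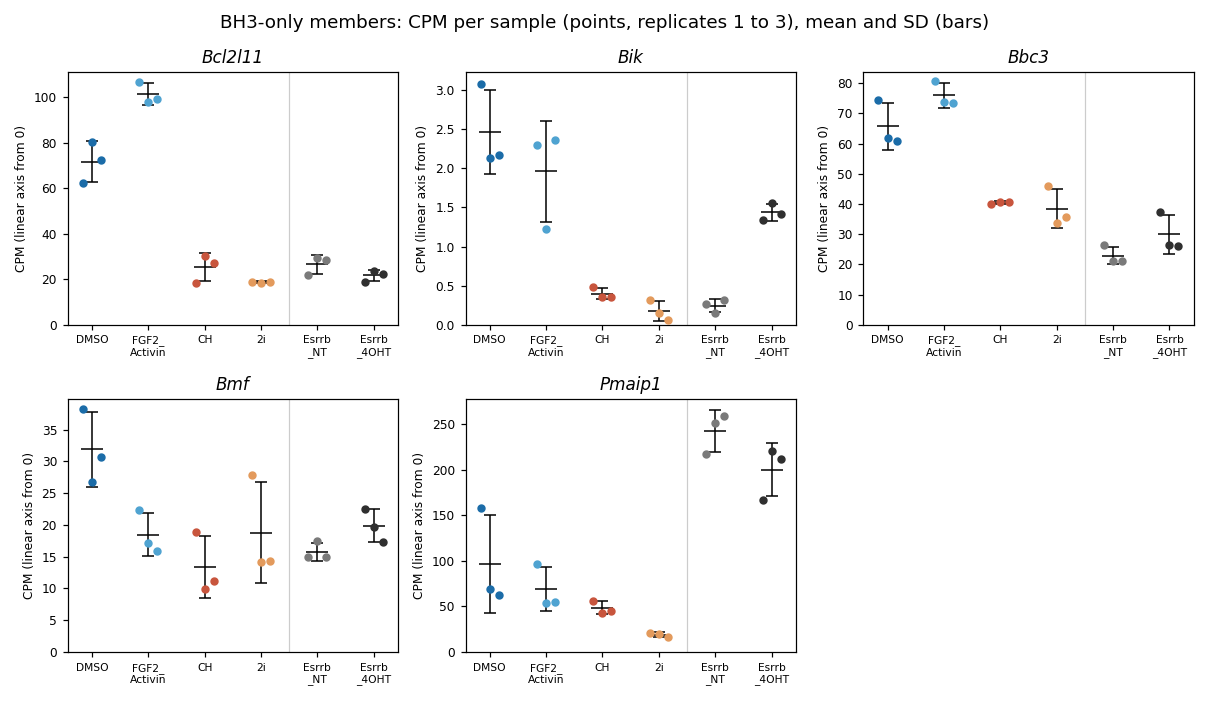
CPM (y axes, linear from 0) of the 5 BH3-only members in the 6 groups (x axes), with 1 point per sample, replicates 1 to 3 from left to right, and bars for the mean and SD. Bcl2l11, Bik and Bbc3 are high in DMSO and FGF2_Activin and low in CH and 2i, Bik alone of these 3 separates Esrrb_4OHT from Esrrb_NT without overlap, and Pmaip1 lies at 167 CPM or more in every Esrrb fl/fl sample.

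To set the members against each other, CPM were divided by the exon length in kb and summed by role. Per kb, Mcl1 made up 82.7% to 93.4% of the summed anti-apoptotic level in every sample and Bcl2 at most 0.365%, and Bax made up 70.6% to 86.3% of the summed effector level. The anti-apoptotic sum varied little in its group means, which ran from 97.8 ± 1.21 in Esrrb_NT to 116 ± 4.40 CPM per kb in 2i (SD, n = 3). Set against the effectors, the log2 ratio was -0.22 ± 0.45 in DMSO, -0.15 ± 0.26 in FGF2_Activin, -0.24 ± 0.10 in CH and -0.08 ± 0.08 in 2i. It was -0.27 ± 0.02 in Esrrb_NT and -0.07 ± 0.07 in Esrrb_4OHT. The E14 groups overlapped, with DMSO alone spreading from -0.59 to 0.28, and Esrrb_4OHT lay above Esrrb_NT in every sample.

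Against the 5 BH3-only members the ratios separated among the E14 groups. The log2 ratio was 0.24, 0.40 and 0.30 in the DMSO samples and 0.51, 0.60 and 0.49 in the FGF2_Activin samples. It was 1.06, 1.30 and 1.34 in CH and 1.70, 2.01 and 2.01 in 2i. The 4 groups did not overlap, and the order was DMSO, FGF2_Activin, CH and 2i from the lowest. The BH3-only sum was 82.8 ± 23.5 CPM per kb in DMSO, 78.3 ± 12.2 in FGF2_Activin, 42.7 ± 2.56 in CH and 31.1 ± 5.30 in 2i (SD, n = 3). The anti-apoptotic sum was 102 ± 24.4, 113 ± 16.01, 100.2 ± 5.10 and 116 ± 4.40 CPM per kb in the same order. Between the polarised and the non-polarised groups the BH3-only sums did not overlap and the anti-apoptotic sums did, while from DMSO to FGF2_Activin the BH3-only sums overlapped as well. Per kb the BH3-only sum was carried by Bbc3 and Pmaip1. Bbc3 contributed 38.4 ± 5.64% in DMSO and 58.1 ± 1.79% in 2i, and Pmaip1 40.7 ± 10.3% and 22.8 ± 2.56%. Bcl2l11, with its long exons, gave 11.5 ± 3.87% in DMSO and 16.3 ± 1.65% in FGF2_Activin, and 7.43 ± 2.18% in CH and 7.61 ± 1.13% in 2i. Bik gave at most 2.08% in any sample. In the Esrrb fl/fl cells the log2 ratio was -0.004, -0.17 and -0.17 in Esrrb_NT and 0.30, -0.05 and -0.04 in Esrrb_4OHT, below every CH sample although all were grown in CHIR99021. The BH3-only sum was 106 ± 7.52 CPM per kb in Esrrb_NT and 94.6 ± 7.68 in Esrrb_4OHT, with overlap. It was thus not higher in the polarised Esrrb_4OHT cells, unlike in the polarised E14 groups. Pmaip1 alone made up 83.6 ± 1.94% of the BH3-only sum in Esrrb_NT and 77.0 ± 5.35% in Esrrb_4OHT. The sums cover the 10 members only and leave out Bid, Bad and Hrk, which are also BH3-only genes. Bid had means of 16.7 and 17.4 CPM per kb in DMSO and FGF2_Activin and more, 26.9 and 21.8, in CH and 2i. Hrk went the other way, at 4.15 and 2.37 against 2.06 and 1.91, and Bad lay at 3.03 and 3.37 against 3.69 and 3.88. All the sums weigh each gene by its transcript level alone and were given no test. With each gene weighted equally instead, as the mean of log2(CPM + 1), the difference between the 2 sides was 0.23 in DMSO, 0.24 in FGF2_Activin, 0.91 in CH and 1.14 in 2i, and 0.43 and 0.69 in Esrrb_NT and Esrrb_4OHT, so that the Esrrb fl/fl groups then lay between the polarised and the non-polarised E14 groups.

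**Figure D4:**
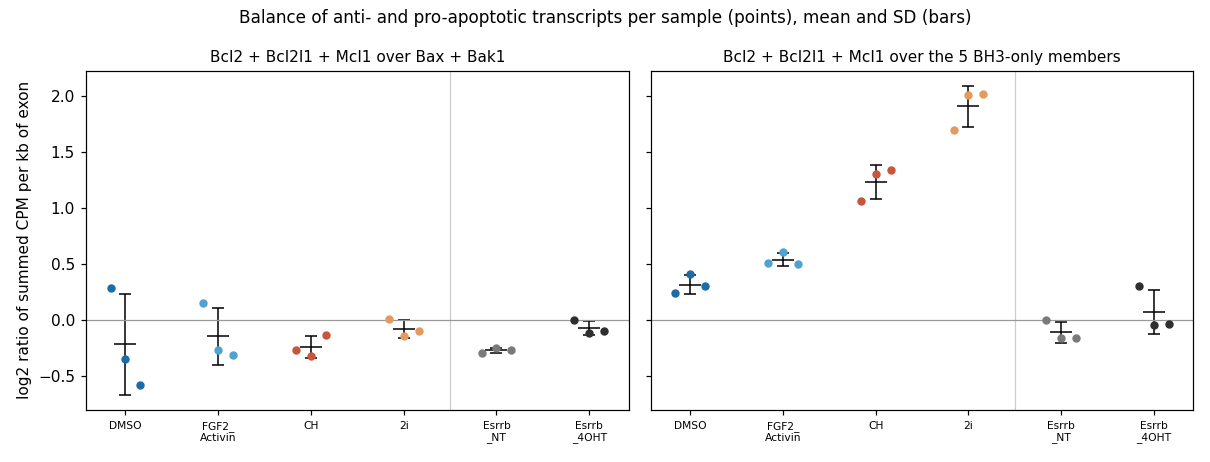
Log2 ratio of summed CPM per kb of exon (y axis) of the 3 anti-apoptotic members over the 2 effectors (left) and over the 5 BH3-only members (right) in the 6 groups (x axes), with 1 point per sample and bars for the mean and SD. On the left the E14 groups overlap, with means from -0.24 to -0.08. On the right they climb from 0.31 in DMSO to 1.90 in 2i, and the Esrrb fl/fl groups lie near 0.

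**Figure D5:**
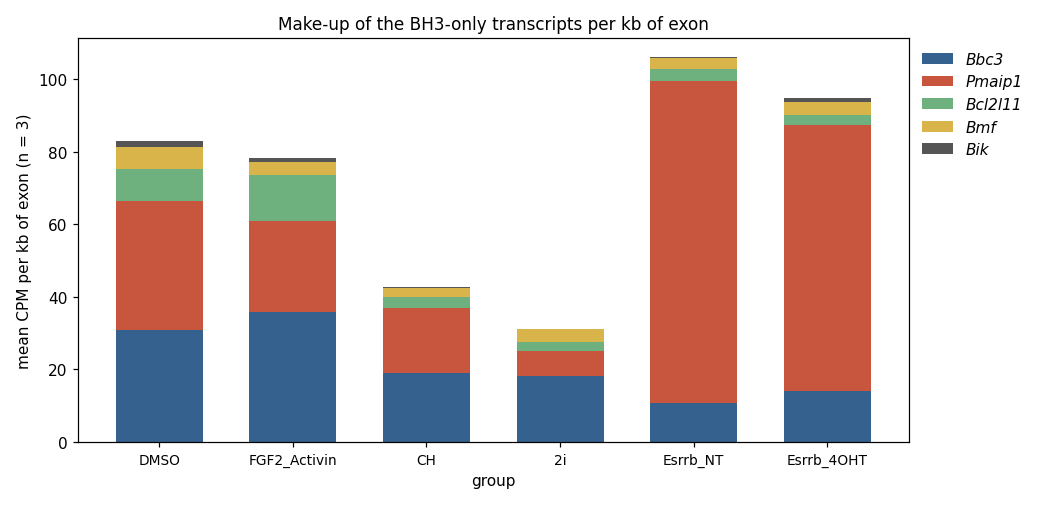
Mean CPM per kb of exon (y axis, bars from 0, n = 3) of each BH3-only member, stacked by group (x axis). The stacks of CH and 2i reach 42.7 and 31.1 against 82.8 in DMSO, and Pmaip1 fills most of both Esrrb fl/fl stacks.

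The rest of the pathway was read from lists of its genes. Of 16 other BCL2 family genes 10 were tested. In CH against DMSO 3 were called lower and 0 higher, namely Bnip3, a mitophagy receptor, at -1.61 ± 0.30, Bcl2l14 at -1.42 ± 0.14 and Bok, a BAX-like effector, at -1.30 ± 0.15. At adjusted p alone 1 was higher and 3 lower there, against 13.7% and 15.3% of all genes. In 2i against FGF2_Activin Bok (-2.21 ± 0.16) and Bnip3 (-1.70 ± 0.30) were again called lower, and in Esrrb_4OHT against Esrrb_NT 0 were called by edgeR or DESeq2, with 5 at an unadjusted p under 0.05. Their median log2 fold changes in these comparisons were -0.25, -0.26 and -0.10, beside -0.002, 0.002 and 0.002 over all genes. Opposite-strand genes cover 22.3% of the exons of Bnip3 and 14.1% of those of Bcl2l14. Downstream of the mitochondria, 14 genes of the apoptosome and the caspases were tested. Endog was called lower in CH against DMSO (-1.13 ± 0.22), and Casp6 (-1.11 ± 0.21) and Endog (-1.04 ± 0.22) in 2i against FGF2_Activin. The opposite-strand gene Spout1 covers 35.7% of the exons of Endog. Of the 5 inhibitors of apoptosis 0 were called in any of the 5 comparisons by edgeR or DESeq2. An unadjusted p under 0.05 was reached by 2 of them in 2i against FGF2_Activin, by 3 in Esrrb_4OHT against Esrrb_NT and by 0 in the other comparisons.

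Beyond the mitochondrial arm, 8 of 11 death receptor genes were tested. Tnfrsf1a, a receptor of TNF, was called lower in CH against DMSO (-1.49 ± 0.33). In Esrrb_4OHT 3 of the 8 were called higher and 0 lower, namely Tnfrsf1a (3.04 ± 0.11, from 3.52 to 28.3 CPM in the means), Casp8 (1.58 ± 0.39, at most 30 counts) and Fas, which had at most 3 counts per library in Esrrb_NT and at most 22 in Esrrb_4OHT, where 12.8% of all genes were called higher. Their median there was 0.46, beside 0.002 over all genes. All 17 genes of the p53 list were tested. In CH against DMSO 2 were called higher and 2 lower. They include Cdkn1a, the cell cycle inhibitor p21, at 1.85 ± 0.40, Trp73 at -1.92 ± 0.15 and Trp63, which had at most 1 count in a DMSO library and at most 82 in CH. In 2i against FGF2_Activin Mdm4, an inhibitor of p53, was called higher (1.15 ± 0.14), and Perp (-1.56 ± 0.21) and Trp73 (-1.12 ± 0.15) lower. In Esrrb_4OHT 5 of the 17 were called higher and 0 lower, led by Perp (3.59 ± 0.20), Btg2 (2.36 ± 0.18) and Trp63 (at most 6 counts in an Esrrb_NT library and at most 26 in Esrrb_4OHT), and at adjusted p alone 10 were higher and 1 lower. Of all genes 12.8% were called higher there, and 24.6% were higher and 19.9% lower at adjusted p alone. The median of the list was 0.63, beside 0.002 over all genes and 0.42 and -0.24 for Bbc3 and Pmaip1, the members that p53 is best known to induce. Of 11 regulators of BH3-only genes and of MCL1 turnover, Myc was called lower (-2.08 ± 0.40) and Usp9x, a deubiquitinase known to stabilise MCL1, higher (1.08 ± 0.08) in 2i against FGF2_Activin. Jun was called higher in Esrrb_4OHT (3.81 ± 0.32). The adjusted p of these calls ran from 7.83e-07 for Tnfrsf1a in Esrrb_4OHT to 0.007 for Casp8 in the edgeR test. In 2i against CH 0 genes of these 6 lists were called by edgeR or DESeq2, with 16 of 65 at an unadjusted p under 0.05. In FGF2_Activin against DMSO 0 were called by edgeR and 1, a regulator, by DESeq2, with 16 of 65 at an unadjusted p under 0.05. Here and above, the share of all genes at an unadjusted p under 0.05 was not counted, so these counts have no background.

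Bik and Bcl2l11 had the widest ranges of the members over the 4 E14 groups. The genes most like Bik over the 12 E14 samples, by Pearson's r of log2 CPM, were Nos3 (0.992), Gramd1c (0.990) and Tceal5 (0.982), and those most like Bcl2l11 were Psors1c2 (0.989), Myh6 (0.988) and Slc5a5 (0.988). These values describe 12 points that share 4 groups and their libraries.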

How the data were processed

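RNA was sequenced from 18 samples, 3 in each of 6 groups taken from the sample labels. Poly(A) libraries from a directional kit were, per the study's methods and the submitters' processing notes, aligned to mm10 with TopHat2 and counted on Ensembl genes of GRCm38 with HTSeq without regard to strand, and the authors deposited whole-number counts, not normalised. The Ensembl release is not given in the sources used here. Symbols, exon lengths and overlaps came from GENCODE M21, in which 49326 of 49671 identifiers were found, and shared sequence from blastn 2.17.0.

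Counts were tested with edgeR 4.0.16 (glmQLFit, glmQLFTest, TMM, filterByExpr) in R 4.3.3. The 12 E14 samples entered 1 fit and the 6 Esrrb fl/fl samples another, and calls needed a Benjamini-Hochberg adjusted p under 0.01 and a log2 fold change beyond 1 in either direction. CPM were scaled by TMM over all 18 samples. The scripts were tested on simulated data. For CH against DMSO 43 of 100 genes changed 2-fold and 81 of 100 changed 4-fold were recovered, and 84 and 98 for Esrrb_4OHT against Esrrb_NT. Recovery needed only an adjusted p under 0.01, with no minimum fold. Each simulation was fitted on the 6 samples of its comparison, so the values for CH against DMSO are not those of the fit of 12 samples. The study's methods describe experiments in general as repeated independently, but neither they nor the labels tie the RNA replicates to separate cultures, so p-values measure the spread between these samples, which may be in part technical. Samples with the same replicate number deviated together (mean r of 0.57 in E14, lowest 0.36, and 0.44 in Esrrb fl/fl, lowest 0.38, from 11200 and 10298 genes), and the numbers were taken to pair the samples. A replicate block was therefore an alternative, beside DESeq2 1.42.0, its size factors, no filter, no minimum fold, the compared samples alone, and each replicate left out. DMSO replicate 1 led to an alternative chosen after seeing the data, replicates 2 and 3 only, as did the longest transcript's length in place of all exons. Figures were drawn with matplotlib 3.10.9. The members, lists and rule for named genes (all members, and in each list the 3 called genes with the largest change per comparison) were chosen with earlier results of these data known. Some of the genes so chosen are left out of the text.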

Additional observations from a re-analysis of the deposited data

How the results depend on the processing

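Of the members' log2 fold changes, 559 of 580 values under the alternatives stayed on the same side of the threshold for a call, 8 passed it newly and 13 no longer did (Bmf in CH against DMSO, Bcl2 in 2i against CH); for the other named genes 988 stayed on the same side, 28 passed newly and 24 no longer did. The sign changed in 22 of the members' 559 values, from 8 differences with an edgeR adjusted p of at least 0.525 over all replicates, and in 23 of the 988, from 15 differences at 0.226 or more. The widest of the members' were Bmf in 2i against FGF2_Activin, from -0.37 to 0.20 on leaving out 1 library, and Pmaip1 in FGF2_Activin against DMSO, which lay at 0.06 without DMSO replicate 1 and otherwise reached -0.82. A called value changed sign in 0 cases. Without a minimum fold change the members called were 6 in CH against DMSO, 2 in FGF2_Activin against DMSO and 4 in Esrrb_4OHT, and the genes called 4750 in CH against DMSO, 6193 in 2i against FGF2_Activin and 6621 in Esrrb_4OHT. In 2i against CH the replicate block, DESeq2 and replicates 2 and 3 each called 2 members (Bcl2 and Pmaip1), and 672, 605 and 768 genes, against 326 in all, while the 6 samples alone called 100 genes. Leaving out 1 library there called 0 members each time and 144 to 275 genes. In FGF2_Activin against DMSO the block called 424 genes, DESeq2 379, replicates 2 and 3 499 and the 6 samples alone 87, against 205, and leaving out 1 library 112 to 171. The block changed no other call of a member than those given beside the results. From replicates 2 and 3, Bbc3 (-0.23), Bcl2l11 (-0.63) and Bmf (0.43) in 2i against CH, and Bbc3 (0.27), Bcl2l11 (0.37) and Bmf (-0.79) in FGF2_Activin against DMSO, also passed edgeR's adjusted p.

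The scaling of a library cancels in the balance, so CPM from total counts gives no check of it. As a difference of unweighted means of log2(CPM + 1), the anti-apoptotic side over the effectors moved to -1.13 in DMSO, -1.53 in FGF2_Activin, -1.62 in CH, -1.73 in 2i, -1.68 in Esrrb_NT and -1.21 in Esrrb_4OHT, a measure in which every gene counts equally. Over the BH3-only genes it moved to 0.23, 0.24, 0.91, 1.14 and 0.69 in DMSO, FGF2_Activin, CH, 2i and Esrrb_4OHT and turned from -0.11 to 0.43 in Esrrb_NT. With the longest transcript's length the ratio over the effectors was -0.46 in FGF2_Activin, -0.60 in CH, -0.44 in 2i, -0.62 in Esrrb_NT and -0.32 in Esrrb_4OHT, and over the BH3-only genes 0.38 in FGF2_Activin. Bik and Bcl2 in 2i and Esrrb_NT rest on 2 to 21 counts per library, which limits the precision of their folds.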
